A study of Homo sapiens with 4 samples.

Results

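In the nearly haploid human line HAP1, 7 genes were transcribed in 3 of the 4 RNA-seq libraries of the series and almost without reads in the fourth. The genes were chosen by their measured counts, as those with at most 2 counts in a single library and 50 or more in each of the others. MGMT, FBXO25, GALNT5, LRATD2, ANGPTL2 and NUDT7 were off in library 2 of the tKO group, and FAM20C was off in library 1 of that group. They are 7 of the 57820 genes in the count files and a given selection out of 11 genes within these limits. Why the other 4 were not selected is not known. The dKO group (RING1A, RING1B KO) had 2 libraries of cells without RING1A and RING1B, and the tKO group (RING1A, RING1B, BAP1 KO) had 2 libraries of cells without BAP1 as well. All cells were untreated and lacked the RING1 enzymes. The RING1B line was purchased, and RING1A and BAP1 were each interrupted with a STOP cassette and resistant clones picked. The study's methods state independent biological replicates, and whether both tKO libraries came from 1 clone is not given in the sources used here.

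PRC1, through RING1A or RING1B, places ubiquitin on histone H2A, a mark tied to gene silencing, and BAP1 removes it. Loss of transcription of a gene can follow from loss of its DNA, which can take neighbouring genes along, or from silencing of its own promoter, which can leave the neighbours active. Promoters rich in CpG dinucleotides are the usual sites of silencing by DNA methylation, and MGMT is the textbook example in tumours. RNA counts read neither DNA content nor DNA methylation. The genes around each of the 7 were therefore examined as well.

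Promoter sequences matched for 4 of the 7 genes, and these 4 are shown because a change of single promoters is 1 of the questions put to these genes. The sequences are from RefSeq (GRCh38.p14), were matched to GRCh37 without a mismatch, and hold the bases upstream of both the RefSeq and the GENCODE start, out of the 250 before the RefSeq start. Capitals mark each GC box, searched as the letters GGGCGG on both strands, with overlapping matches allowed. A match is a run of letters and not a shown binding site.
MGMT (chr10:131265255-131265453, plus strand): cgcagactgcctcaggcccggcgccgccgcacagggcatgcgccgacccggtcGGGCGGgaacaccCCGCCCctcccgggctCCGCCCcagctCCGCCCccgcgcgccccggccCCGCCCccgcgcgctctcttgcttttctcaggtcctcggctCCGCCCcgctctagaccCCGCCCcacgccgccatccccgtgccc
FAM20C (chr7:192321-192570, plus strand): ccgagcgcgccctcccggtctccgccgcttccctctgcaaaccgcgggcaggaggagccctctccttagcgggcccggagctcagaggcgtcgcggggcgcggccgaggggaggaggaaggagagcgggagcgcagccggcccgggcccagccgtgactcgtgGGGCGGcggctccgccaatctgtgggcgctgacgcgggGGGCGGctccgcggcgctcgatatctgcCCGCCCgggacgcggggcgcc
NUDT7 (chr16:77756161-77756388, plus strand): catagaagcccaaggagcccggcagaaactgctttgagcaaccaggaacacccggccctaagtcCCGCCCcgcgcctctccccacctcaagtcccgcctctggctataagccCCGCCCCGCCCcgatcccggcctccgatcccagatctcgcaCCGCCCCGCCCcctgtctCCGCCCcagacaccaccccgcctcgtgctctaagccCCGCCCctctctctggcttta
ANGPTL2 (chr9:129884915-129885164, minus strand): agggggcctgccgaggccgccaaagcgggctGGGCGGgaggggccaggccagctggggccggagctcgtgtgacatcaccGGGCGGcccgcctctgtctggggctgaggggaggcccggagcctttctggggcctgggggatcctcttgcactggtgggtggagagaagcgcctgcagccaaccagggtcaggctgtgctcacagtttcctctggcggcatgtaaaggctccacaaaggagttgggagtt

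In these windows of 250 bases, MGMT had 36 CpG dinucleotides and 8 GC boxes, of which 7 lie in the part printed. FAM20C had 38 CpG and 3 GC boxes, NUDT7 had 19 CpG and 7 GC boxes, and ANGPTL2 had 12 CpG and 2 GC boxes. The ratio of observed to expected CpG was 0.995 for MGMT, 0.994 for FAM20C, 0.779 for NUDT7 and 0.428 for ANGPTL2. Over the 9599 promoters of genes with at least 50 counts in both dKO libraries the median was 0.837, with quartiles of 0.698 and 0.951. MGMT and FAM20C thus lay above the upper quartile, NUDT7 between the quartiles and ANGPTL2 under the lower quartile. A GC box was present in 69.7% of these promoters and in 42.3% of all 27305, and the letters TATAAA in 4.67% and 11.1%. None of the 4 windows held TATAAA. The 4 promoters thus ranged from CpG-rich to CpG-poor.

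**Figure D1:**
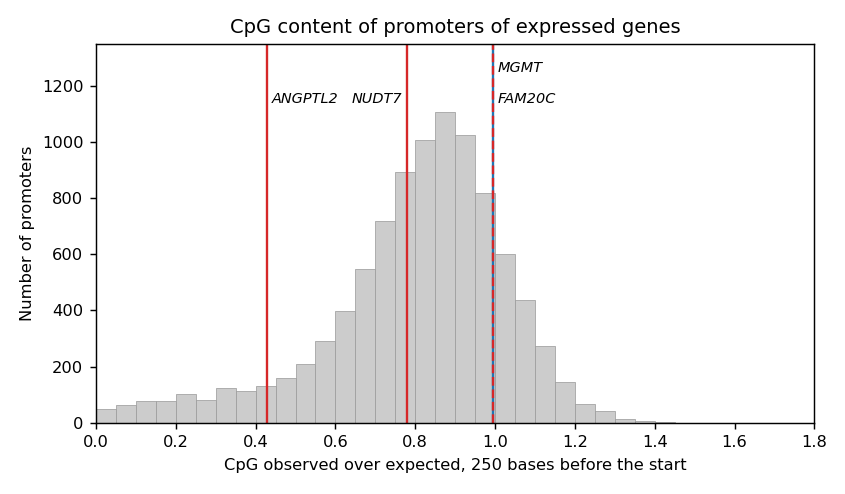
Ratio of observed to expected CpG (x axis) in the 250 bases before the start of 9599 genes with at least 50 counts in both dKO libraries, as number of promoters (y axis). Lines mark MGMT (dashed) and FAM20C, which lie together at 0.995 and 0.994, NUDT7 at 0.779 and ANGPTL2 at 0.428.

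Libraries held between 16054590 and 18455410 counts in genes, and a floor of 3 counts per library corresponds to between 0.163 and 0.187 CPM, the gene's share of all gene counts on the usual scale. BAP1, the gene targeted in tKO, had 2046 and 2010 counts in dKO and 158 and 107 counts in tKO. RING1 (RING1A) had between 12 and 17 counts per library and RNF2 (RING1B) between 1102 and 1561, so that RNA counts do not check the loss of RING1B. The tKO libraries stood further from dKO than the dKO libraries did from each other. Over 12161 genes with at least 50 counts in both dKO libraries, the SD of the log2 ratio was 0.20 between the dKO libraries, 0.27 for tKO 1 and 0.40 for tKO 2 against the dKO mean. In tKO 2 the 294 such genes in the first 57 Mb of chromosome 3 had a median log2 ratio of -0.93, and in tKO 1 the 111 genes in the first 38 Mb of chromosome 10 had -0.97. BAP1 lies in the first of these stretches, and of the 7 genes 0 lie in either. Of 12 markers of blood, fibroblasts, epithelium and endothelium, 11 were found, of which COL1A1 was detected with between 174 and 231 counts and 10 had at most 5 counts in each library. HAP1 has no agreed marker of its own.

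In tKO 2, 10 genes had no more than 2 counts, which is 0.0837% of the 11954 that reached 50 in the remaining libraries. In tKO 1 the number was 1 of 11927 (0.00838%), and in each dKO library it was 0. The 10 genes of tKO 2 were the 6 described here, VILL, which lies in the reduced stretch of chromosome 3, ZNF682 and ZNF431 on chromosome 19, and ENSG00000272005.1, for which no symbol or position was found. The last 4 are those not selected. Just inside the limits, ANGPTL2 had 51 counts in tKO 1, and LRATD2 and FAM20C had 2 counts where they were off. Just outside, ENSG00000269640.1 had 3 and ACTG2 had 4 counts in tKO 2, and ARHGAP36 had 0 counts in tKO 2 but 42 in tKO 1. These counts were used to choose the genes and carry no test.

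**Figure D2:**
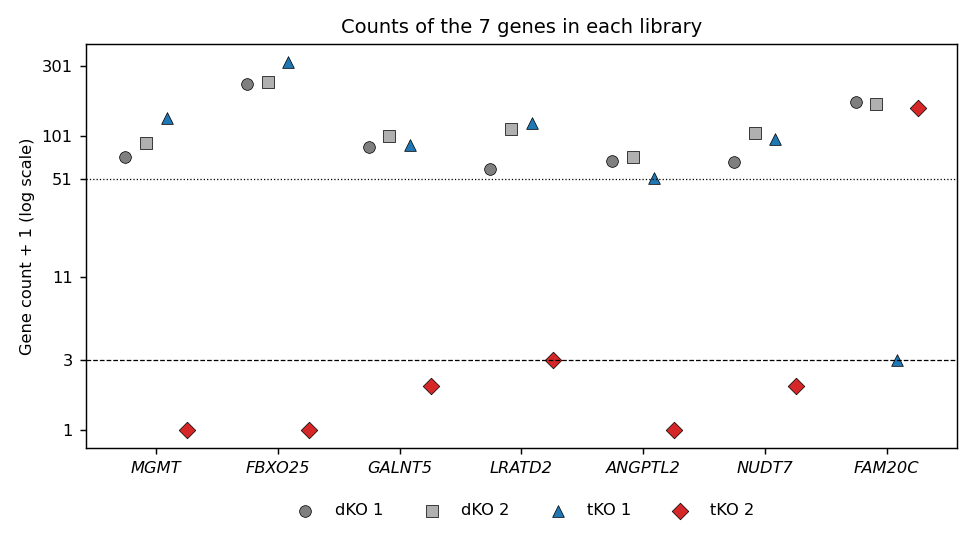
Gene count + 1 (y axis, log scale) of the 7 genes in each library. The dotted line marks 50 counts and the dashed line 2 counts, and the tKO 2 points of 6 genes and the tKO 1 point of FAM20C lie on or under the dashed line.

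MGMT, a DNA repair protein that removes alkyl groups from guanine, lies on chromosome 10 (ENSG00000170430.9, GRCh37 131265454 to 131569247, plus strand). It had 72 and 89 counts in the dKO pair, 132 in tKO 1 and 0 in tKO 2. The dKO pair averaged 4.42 ± 0.739 CPM (SD, n = 2), and tKO 2 was at least 23.7-fold lower, taking the floor of 3 counts in that library. In tKO 1 it was 1.82 times the dKO mean and above both dKO libraries. The nearest expressed neighbours were close to dKO in tKO 2. EBF3, a transcription factor gene 64.2 kb beyond MGMT, had 1028 and 989 counts in the dKO pair, 793 in tKO 1 and 963 in tKO 2, a log2 ratio of 0.11 in tKO 2. On the other side MKI67, the gene of the Ki-67 proliferation antigen at 1341 kb, had a log2 ratio of -0.01. PTPRE, a phosphatase gene at 1381 kb, was the neighbour furthest from dKO, with 77 and 76 counts in the dKO pair, 120 in tKO 1 and 196 in tKO 2, a log2 ratio of 1.51 in tKO 2. Both tKO libraries were above both dKO libraries. In a bulk library, fewer cells with a transcript and less RNA per cell cannot be told apart.

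FBXO25, the substrate receptor of an SCF ubiquitin ligase, lies near the start of chromosome 8 (ENSG00000147364.12, 356428 to 427967, plus strand). It had 228 and 236 counts in the dKO pair, 319 in tKO 1 and 0 in tKO 2. The level in dKO was 12.7 ± 0.54 CPM (SD, n = 2), and tKO 2 was at least 68.2-fold lower. Its level in tKO 1 was 1.53 times the dKO mean and again above both dKO libraries. The genes on its sides differed. ERICH1, 137 kb beyond it, had 746 and 684 counts in the dKO pair, 604 in tKO 1 and 756 in tKO 2, a log2 ratio of 0.26 in tKO 2. Towards the chromosome end no gene had 50 counts in both dKO libraries, but 3 had at least 10, and they were lower in tKO 2. ZNF596, a zinc finger gene at 142 kb, had 45 and 41 counts in the dKO pair, 52 in tKO 1 and 10 in tKO 2, a log2 ratio of -1.75. RPL23AP53 at 174 kb, a pseudogene by its name, and ENSG00000272812 at 173 kb had log2 ratios of -1.83 and -2.04, with 6 and 3 counts left in tKO 2. RPL23AP53 had 30 and 29 counts in dKO and 31 in tKO 1, and ENSG00000272812 had 21 and 20 in dKO and 14 in tKO 1. On this side of FBXO25 the 3 genes were thus over 2-fold lower in tKO 2 with few counts left, those of ENSG00000272812 at the floor of 3.

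LRATD2, a gene with an LRAT domain whose function is little known, lies on the other arm of chromosome 8 (ENSG00000168672.3, 127564688 to 127570723, minus strand). It had 59 and 111 counts in the dKO pair, 122 in tKO 1 and 2 in tKO 2. The dKO libraries were far apart, at 4.68 ± 2.10 CPM (SD, n = 2). The count in tKO 2 was 2.66% of the dKO mean, with an exact Poisson 95% interval of 0.322% to 9.61%, which covers counting error only. The level in tKO 1 was 1.59 times the dKO mean and above both dKO libraries, which were themselves 0.90 apart on the log2 scale. TRIB1, a pseudokinase gene 1114 kb before it, and MYC, the oncogene 1177 kb beyond it, had log2 ratios of 0.12 and 0.32 in tKO 2. No gene with 50 counts in both dKO libraries lay within 1 Mb. The 1 gene there with at least 10, POU5F1B, a retrogene of a pluripotency factor, had 13 and 16 counts in dKO, 4 in tKO 1 and 26 in tKO 2.

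GALNT5, an enzyme that starts mucin-type O-glycosylation in the Golgi, lies on chromosome 2 (ENSG00000136542.4, 158114217 to 158175003, plus strand). It had 84 and 100 counts in the dKO pair, 86 in tKO 1 and 1 in tKO 2. The count in tKO 2 was 1.23% of the dKO mean (95% interval 0.0312% to 6.87%), and the level in tKO 1 lay between those of the dKO libraries. ERMN, a gene for an actin-binding protein of oligodendrocytes, lies on the opposite strand with its end 0.139 kb beyond the annotated end of GALNT5. Its counts were 219 and 172 in dKO, 166 in tKO 1 and 331 in tKO 2, so that it was highest in the library without GALNT5, with a log2 ratio of 0.94. GPD2, the mitochondrial glycerol-3-phosphate dehydrogenase gene 644 kb before GALNT5, had 2139 and 2120 counts in the dKO pair, 1618 in tKO 1 and 1325 in tKO 2, a log2 ratio of -0.51 in tKO 2 and -0.23 in tKO 1. Apart from ERMN, the neighbours on the other side and the farther ones lay between -0.21 and 0.56.

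ANGPTL2, a secreted glycoprotein of the angiopoietin-like family, lies on chromosome 9 (ENSG00000136859.5, 129849627 to 129884914, minus strand). It had 67 and 72 counts in the dKO pair, 51 in tKO 1 and 0 in tKO 2. The level in dKO was 3.82 ± 0.263 CPM (SD, n = 2), tKO 2 was at least 20.4-fold lower, and tKO 1 was at 0.814 times the dKO mean and below both dKO libraries. ANGPTL2 lies within RALGPS1, a gene for a Ral exchange factor on the opposite strand (129677053 to 129985445). RALGPS1 had 213 and 214 counts in the dKO pair, 235 in tKO 1 and 202 in tKO 2, a log2 ratio of 0.09 in tKO 2. The host gene was thus near its dKO level where the gene inside it had no count. ZBTB34 at 201 kb and GARNL3 at 102 kb had log2 ratios of -0.22 and 0.09.

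NUDT7, a peroxisomal Nudix hydrolase that breaks down coenzyme A, lies on chromosome 16 (ENSG00000140876.7, 77756389 to 77776157, plus strand). It had 66 and 104 counts in the dKO pair, 95 in tKO 1 and 1 in tKO 2. The dKO level was 4.68 ± 1.56 CPM (SD, n = 2), and the count in tKO 2 was 1.33% of the dKO mean (95% interval 0.0337% to 7.42%). Without regard to strand, where STAR leaves out reads that overlap exons of more than 1 gene, NUDT7 had 32, 30, 39 and 0 counts and no longer met the limit of 50. ENSG00000261707, annotated on the opposite strand, overlaps its end. MON1B, a vesicle traffic gene 520 kb before it, and WWOX, a large gene of a fragile site 357 kb beyond it, had log2 ratios of 0.07 and -0.04 in tKO 2. MAF, a transcription factor gene at 1844 kb, had 117 counts in tKO 2 but 16 in tKO 1, against 93 and 121 in dKO.

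FAM20C, the Golgi kinase that phosphorylates secreted proteins, lies near the start of chromosome 7 (ENSG00000177706.8, 192969 to 300711, plus strand). It had 172 and 165 counts in the dKO pair, 155 in tKO 2 and 2 in tKO 1. The level in dKO was 9.25 ± 0.105 CPM (SD, n = 2), and in tKO 1 it was at 1.32% of that mean (95% interval 0.16% to 4.76%). In tKO 2 the level was 1.04 times the dKO mean. PRKAR1B, a regulatory subunit of protein kinase A at 288 kb, had 255 and 150 counts in the dKO pair, 302 in tKO 1 and 176 in tKO 2, a log2 ratio of 0.79 in tKO 1, and the dKO libraries themselves were 0.74 apart. Between FAM20C and PRKAR1B, at 236 kb, PDGFA, a platelet-derived growth factor gene, had 49 and 37 counts in the dKO pair, 5 in tKO 1 and 18 in tKO 2, a log2 ratio of -2.53 in tKO 1. ADAP1, an Arf GTPase-activating protein gene at 637 kb, had 35 and 32 counts in the dKO pair, 3 in tKO 1 and 69 in tKO 2, a log2 ratio of -2.70 in tKO 1. Genes between and beyond these, DNAAF5, SUN1, GET4 and COX19, lay between -0.05 and 0.44, so that genes over 2-fold lower alternated with genes near the dKO level. On the chromosome end side LINC03015 at 43.4 kb had 16 and 17 counts in dKO and 12 counts in tKO 1.

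In the tKO library where the 7 genes were not off, which had to reach 50 counts by the choice of the genes, their log2 ratios ran from -0.27 to 0.87, against -4.25 to -6.79 where they were off. Per length of exon, NUDT7 had the highest level in dKO at 2.86 RPKM, which is CPM divided by the exon length in kb, followed by FAM20C at 2.00, FBXO25 at 1.11, ANGPTL2 at 1.05, LRATD2 at 0.817, MGMT at 0.678 and GALNT5 at 0.46. The dKO values of FBXO25 and ANGPTL2 overlapped, as did those of LRATD2 with ANGPTL2 and with MGMT, while NUDT7, FAM20C and GALNT5 did not overlap the next gene in this order. Counts in the orientation opposite to that of the kit were at most 1 per library for each of the 7 genes.

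**Figure D3:**
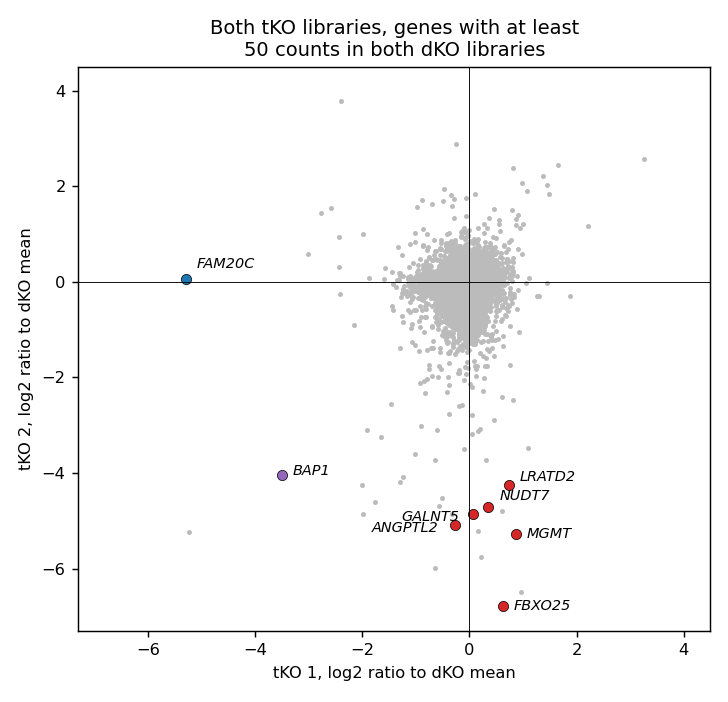
Log2 ratio to the dKO mean in tKO 1 (x axis) and tKO 2 (y axis) of genes with at least 50 counts in both dKO libraries. The 6 genes off in tKO 2 (red) lie at -4.25 or lower on the y axis and between -0.27 and 0.87 on the x axis, FAM20C (blue) lies at -5.29 on the x axis, and BAP1 (purple) is low in both.

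Genes without a known position, ENSG00000272005.1 among them, could not be neighbours. Neighbours were taken as the nearest 5 genes on each side with at least 50 counts in both dKO libraries, a choice that used no tKO count. FBXO25 and FAM20C had such genes on 1 side only, which left 60 neighbours. In the library where the gene beside them was off, 0 of the 60 were over 2-fold lower than dKO, against 1.93% of all such genes in tKO 2 and 0.749% in tKO 1. Of the 60, 21 were lower and 39 higher, a split that was not tested. Over all 12161 such genes the median log2 ratio was 0.0026 in tKO 2 and 0.0008 in tKO 1. The median log2 ratio of the neighbours was 0.05 for MGMT, -0.04 for FBXO25, -0.03 for GALNT5, 0.09 for LRATD2, 0.05 for ANGPTL2, 0.10 for NUDT7 and 0.19 for FAM20C. For FBXO25 this depended on the limit of 50 counts, with a median of -0.54 over 8 neighbours with at least 10 counts and -1.79 over the 4 such genes within 1 Mb. Across whole chromosomes the medians in the same libraries lay between -0.02 and 0.08. An expressed gene with a log2 ratio of at least -0.5 was found on both sides of 5 of the 7 genes.

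Within 1 Mb, a range chosen after the neighbours had been seen, 55 genes had at least 10 counts in both dKO libraries, and 6 were over 2-fold lower where the gene beside them was off. Of all genes with at least 10 counts this was the case for 2.74% in tKO 2 and 1.4% in tKO 1. The 6 were the 3 genes beside FBXO25, PDGFA and ADAP1 beside FAM20C, and PIP5KL1, at 798 kb from ANGPTL2, with 11 and 19 counts in the dKO pair, 4 in tKO 1 and 3 in tKO 2. MGMT, GALNT5, LRATD2 and NUDT7 had 0 such genes of 3, 6, 1 and 3. Of 10 annotated genes that overlap the 7, RALGPS1 was the 1 with counts, and the other 9 had 0 counts in each library. The nearest genes on each side that had 50 counts in both dKO libraries, did not overlap and had a log2 ratio of at least -0.5 left room of 338 kb around ANGPTL2, 897 kb around NUDT7, 976 kb around GALNT5, 1709 kb around MGMT and 2297 kb around LRATD2. GPD2 lies nearer to GALNT5 than NR4A2, the gene that bounds this room, and had 1325 counts in tKO 2 but missed the limit at -0.51. FBXO25 and FAM20C had no such gene towards the chromosome end. Genes left out by these limits also lie inside the rooms. RALGPS1, across ANGPTL2, had 202 counts in tKO 2. SYCE1L beside NUDT7 had 17 counts in tKO 2 against 17 and 20 in dKO, and POU5F1B beside LRATD2 had 26 against 13 and 16. A loss of DNA within this room that spares the genes still counted there, and silencing of the promoter, cannot be told apart with these counts.

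**Figure D4:**
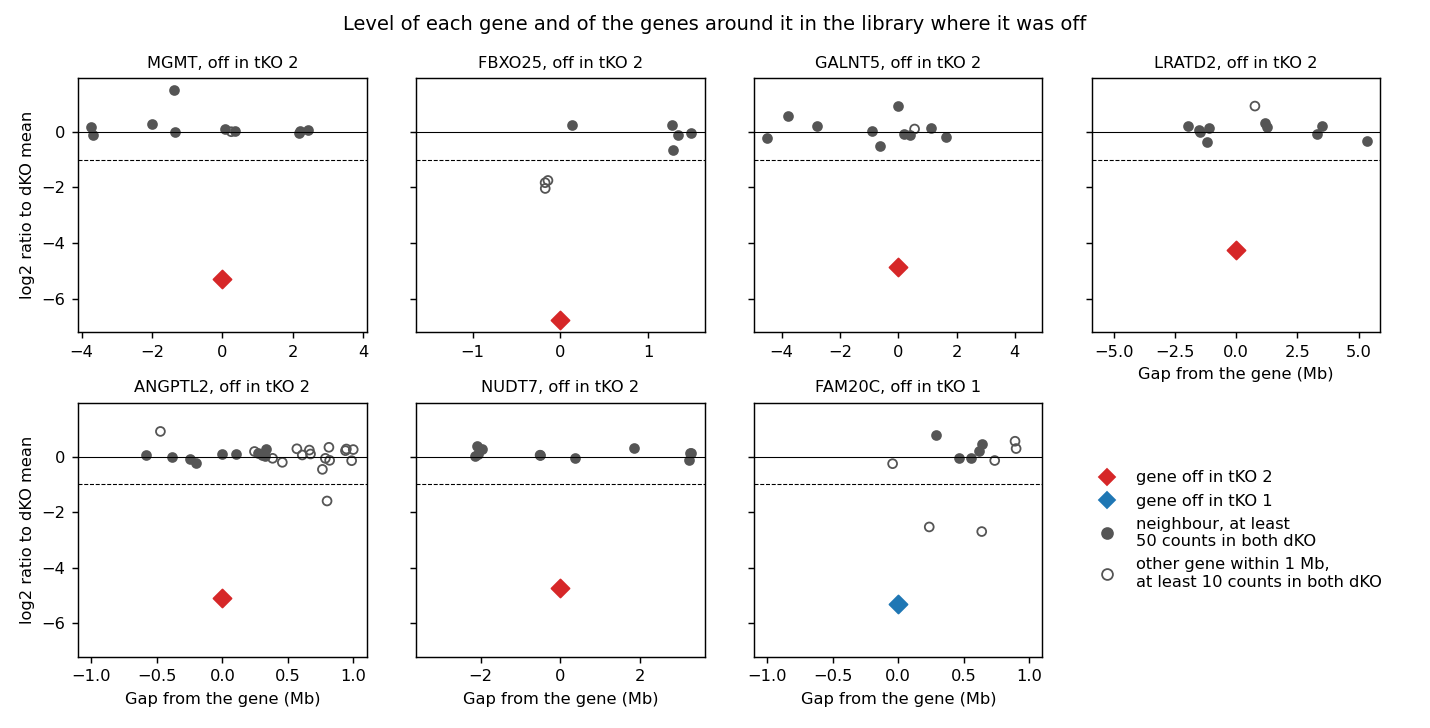
Log2 ratio to the dKO mean (y axis) of each of the 7 genes and of the genes around it in the library where it was off, against the gap between the gene bodies (x axis, Mb, negative towards lower coordinates). Filled points, the 60 neighbours, all lie above the dashed line at -1, and 6 open points, genes of lower counts within 1 Mb, lie under it.

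The pattern was also compared with that of other genes. Among genes that reached 50 counts in the remaining libraries, those with the lowest log2 ratio to dKO beside the 6 in tKO 2 were ENSG00000272005.1 at -6.49, BST2 at -5.98 and ZNF431 at -5.76. BST2, the interferon-induced tetherin gene, had 2051 and 2055 counts in the dKO pair, 1175 in tKO 1 and 27 in tKO 2, so that reads remained. Beside FAM20C in tKO 1 they were BAP1 at -3.50, which was targeted, SH3RF3 at -3.02 and ECEL1 at -2.77, the last with 15 counts in tKO 1 and 308 counts in tKO 2. FAM20C itself was at -5.29. This likeness rests on 4 libraries.

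The genotypes were compared across 15136 genes to ask whether neighbours and relatives differed between tKO and dKO. Of these genes 0.0132% were differentially expressed (DE), which required in limma an adjusted p-value under 0.05 with a change of over 1 log2 unit either way. At an unadjusted p-value under 0.05 there were 538. Of the 60 neighbours 0 were DE (limma, smallest adjusted p = 0.996), with 3 at an unadjusted p-value under 0.05. The genotype fits take both tKO libraries together and can miss a change confined to 1 of them. They thus cannot decide whether neighbours were lower in the library where a gene was off. DE neighbours numbered 0 with the edgeR quasi-likelihood test and 0 with DESeq2 as well, with 3 and 2 at an unadjusted p-value below 0.05. Over all 15136 genes, 530 were below 0.05 with edgeR and 321 with DESeq2. Of the neighbours, PTPRE lay furthest from dKO in tKO 2, with a log2 ratio of 1.51, and MAF in tKO 1, with -2.43. The 7 genes themselves were chosen on these counts and receive no test.

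Relatives by family or function were 72 genes, of which 71 were found and 56 tested. Of the 56, 0 were DE (limma, smallest adjusted p = 0.996), 25 were higher and 31 lower, and at an unadjusted p-value under 0.05 there were 4. The numbers were 0 with edgeR and 0 with DESeq2, with 2 and 1 at an unadjusted p-value below 0.05. Over all 15136 genes, 538 were below 0.05 with limma, 530 with edgeR and 321 with DESeq2. The median log2 fold change of the 56 was -0.03. Among those with at least 50 counts in every library, the furthest below dKO were GASK1A and GALNT16, at -0.75 and -0.61, and the furthest above were PLAAT1 and NUDT14, at 0.24 and 0.23. None of these 4 values passed the threshold. PLAAT1 was above dKO in tKO 1 only, with log2 ratios of 0.76 in tKO 1 and -0.28 in tKO 2.

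These relatives fell into 7 families, each with its own partner among the 7 genes. Of the repair genes beside MGMT, ALKBH2 and ALKBH3, which reverse alkylation by another chemistry, had log2 fold changes of 0.01 and 0.00, and MPG, a glycosylase, had -0.25. MPG had 496 and 555 counts in the dKO pair, 385 in tKO 1 and 400 in tKO 2, and did not pass the threshold. Of the SCF core beside FBXO25, SKP1, CUL1 and RBX1 lay between -0.04 and 0.01, and FBXO32, the closest relative of FBXO25, had at most 12 counts. Of 17 other GalNAc-transferases beside GALNT5, 13 were tested and lay between -0.73 and 0.09. The -0.73 was that of GALNT3, with between 0 and 13 counts per library. GALNT2 had between 2182 and 2838 counts per library and GALNT1 between 1518 and 1906.

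Of the angiopoietin-like genes beside ANGPTL2, ANGPTL6 had between 24 and 30 counts per library and ANGPTL1, ANGPTL7 and ANGPTL8 had 0 in all of them. ANGPT1, an angiopoietin, had 506 and 510 counts in the dKO pair, 354 in tKO 1 and 285 in tKO 2, a log2 fold change of -0.50 that did not pass the threshold (limma adjusted p = 0.996). Of the Nudix hydrolases 19 were tested and lay between -0.55 and 1.06. NUDT12 and NUDT19, which like NUDT7 act in peroxisomes, were at -0.25 and 0.02. NUDT5 at -0.55 lies in the reduced stretch of chromosome 10, with a log2 ratio of -1.03 in tKO 1 and -0.08 in tKO 2, and the 1.06 was that of NUDT13, with between 7 and 25 counts. Of the kinases beside FAM20C, FAM20B had between 1735 and 1978 counts and FAM20A between 19 and 40. GASK1A lies on chromosome 3 in the reduced stretch, with a log2 ratio of -0.29 in tKO 1 and -1.21 in tKO 2. LRATD1, the closest relative of LRATD2, had between 95 and 142 counts and a log2 fold change of -0.08.

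**Figure D5:**
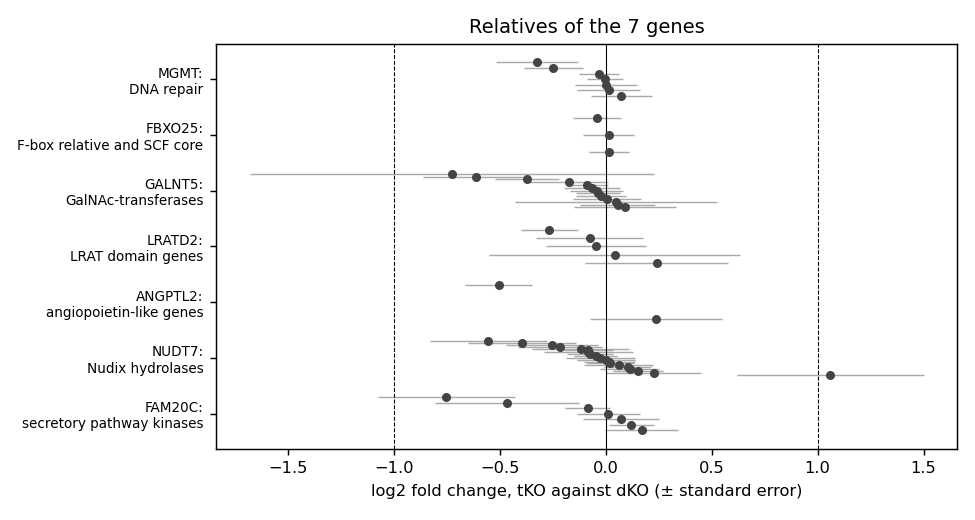
Log2 fold change of tKO against dKO (x axis, points, with standard errors as bars) of the 56 tested relatives, by family (y axis). Dashed lines mark 1 and -1, and of the 56 only NUDT13, a gene with few counts, lies beyond them at 1.06.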

How the data were processed

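RNA-seq of HAP1 cells was measured in 2 dKO and 2 tKO libraries, grouped by their titles. According to the labels and the study's methods, stranded libraries were made from polyadenylated RNA. The authors trimmed reads with cutadapt (1.12) through Trim Galore (0.4.4), removed ribosomal RNA reads with bowtie (1.2) and mapped the rest to GRCh37 with STAR (2.5.2b). The deposited values are raw counts per GENCODE gene of uniquely mapped reads, so reads shared by near-identical copies are left out. Counts antisense to the gene, the orientation of the kit, were used. Rows that name no gene held between 27.3% and 28.7% of reads and were left out. The study's methods state paired-end reads and counts of proper pairs, while the names of the deposited tables refer to read 1, so whether pairs were counted was not established.

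Symbols and positions came from GENCODE release 44 lifted to GRCh37 (97.5% of tested genes). Genes with CPM above 0.5 in at least 2 libraries were fitted with limma (3.58.1) on log2-CPM with TMM (edgeR 4.0.16) and a prior count of 2, with a mean-variance trend and Benjamini-Hochberg adjustment, in R (4.3.3). Ratios of 1 library to the mean of the dKO libraries used the same log2-CPM, which understates changes of low counts. CPM values with SD used library totals. RPKM used the union of annotated exons. The fit was tested on simulated data, and its p-values measure the spread between these 4 libraries. Intervals cover counting error only, since PCR copies are not independent.

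The 7 genes, the relatives and the rules were chosen with earlier results of these data known. Named are the 7 genes, the targeted genes, the nearest neighbour on each side, overlapping genes, neighbours over 2-fold lower, other genes meeting the rule, the 3 most similar genes per library, and the 2 relatives furthest in each direction. Further neighbours and relatives were named after their values were seen, and results for some listed relatives are not reported here. Alternatives were RLE size factors, library totals, other filters, prior counts and neighbour rules, edgeR, DESeq2 (1.42.0), unstranded counts, a replicate block and leaving out each library.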

Additional observations from a re-analysis of the deposited data

How the results depend on the processing

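The number of DE genes was 2 and did not move with RLE size factors or a prior count of 0.25. A single DE gene was left (1) with CPM above 5, with the edgeR quasi-likelihood test and with unstranded counts, 25 with DESeq2, and 0 with no filter, where 1447 genes had an unadjusted p-value below 0.05. With the replicate number as a block it was 13. Same-numbered libraries hardly deviated together (correlation 0.0581 over genes), and the labels give no shared batch. Over the fits that left out 1 library it ran from 0 to 480, with 0 without dKO 1, 0 without dKO 2, 480 without tKO 1 and 175 without tKO 2. In these fits the lone library was assumed to vary like the other group. The number of DE relatives and the number of DE neighbours were each 0 in every fit that kept all 4 libraries, the block included, and ran from 0 to 1 over the fits that left out 1 library, with GASK1A and PTPRE without tKO 1 and NUDT5 and MAF without tKO 2.

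Neighbours over 2-fold lower numbered 0 in every alternative that kept the limit of 50 counts, also with the nearest 3 or 10 on each side. With at least 10 counts the number was 4 of 64 (ZNF596, RPL23AP53, ENSG00000272812 and PDGFA), and within 1 Mb, an alternative chosen after seeing the data, it was 6 of 55. The median log2 ratio of the 7 genes where off was -5.08, against -6.07 with a prior count of 0.25 and -4.86 with unstranded counts, and ran from -5.14 to -5.02 without 1 dKO library. Genes meeting the rule numbered 11, against 4 with 0 counts where off and 5 with at least 100 counts elsewhere, since both limits are stricter, and 3 and 2 of the 7 genes met these limits. Thinned to the smallest total it was 10, and with unstranded counts 11. Of the 7 genes, 6 met the rule in each, ANGPTL2 being the exception when thinned and NUDT7 with unstranded counts. With few counts per library, levels under 3 counts could not be told from 0. The cause of the other changes was not tested.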

Other observations

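The reverse pattern, at least 50 counts in 1 library and at most 2 in each of the others, was shown by 2 genes, both in tKO. MCTP2, a gene for a membrane protein with C2 domains, had 60 counts in tKO 1 and 0, 1 and 0 counts in dKO 1, dKO 2 and tKO 2. SV2C, a gene for a synaptic vesicle glycoprotein, had 52 counts in tKO 2 and 0, 1 and 0 counts in dKO 1, dKO 2 and tKO 1. Other genes came close to the limits of the rule. SPARC, a secreted matrix protein gene, had 227 and 237 counts in the dKO pair, 50 in tKO 1 and 9 in tKO 2. IKZF1, a transcription factor gene of blood cells, had 68 and 74 counts in the dKO pair, 9 in tKO 1 and 188 in tKO 2. These genes were chosen by their counts and were not tested.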
